A study of Homo sapiens with 6 samples.

Results

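The clustered protocadherins are the protein-coding genes of the PCDHA, PCDHB and PCDHG clusters, which lie next to each other on the long arm of chromosome 5. They were taken as the protein-coding genes on chromosome 5 of the RefSeq table of GRCh38.p14 whose symbols start with PCDHA, PCDHB or PCDHG. This gave 53 of 20037 protein-coding genes: 13 alternate PCDHA genes, 2 C-type genes of the PCDHA cluster (PCDHAC1 and PCDHAC2), 16 PCDHB genes, 12 PCDHGA genes, 7 PCDHGB genes and 3 C-type genes of the PCDHG cluster (PCDHGC3, PCDHGC4 and PCDHGC5).

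Clustered protocadherins are cell surface adhesion proteins that neurons use to tell themselves from their neighbours. Each gene of the PCDHA and PCDHG clusters contributes its own first exon with its own promoter, which is spliced to constant exons shared by the whole cluster, whereas PCDHB genes have no shared exons. A neuron uses a few alternate promoters, picked largely at random, together with the C-type promoters, and the choice depends on DNA methylation, on the looping factor CTCF with cohesin, and on distal enhancers.

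The data were ATAC-seq summits of H1 cells, an established line of human pluripotent stem cells. In ATAC-seq a transposase cuts accessible DNA, and a summit is the position of highest signal within a region called as accessible. All 6 libraries came from cells grown in mTeSR1 medium on Matrigel that received a short hairpin RNA by lentivirus and were selected with puromycin. The hairpins shHNRNPU #1 and shHNRNPU #2 target HNRNPU, which encodes a nuclear RNA-binding and chromatin-associated protein, and shLUC is the control hairpin, with 2 libraries each, so that 4 shHNRNPU libraries were compared with 2 shLUC libraries. The labels do not say whether the 2 libraries of a hairpin came from separate cultures, so the spread between them may be technical. A hairpin acts on RNA, and these files hold no measure of how far HNRNPU was reduced.

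A gene start is called open below where a library had at least 1 summit within 2000 bp of it, and the level given for it is the percentile of its best summit when all summits of that library are ranked by score (100 is the strongest). The lists held 52168 to 63519 summits and 356720 in all, and read depth is unknown, so a closed start is one at which nothing was called, not one shown to be inaccessible. Genes marking pluripotent cells were open near an end in all 6 libraries for 7 of 8 genes (LIN28B had no summit), but so were 4 of 4 neural, 3 of 4 endoderm, 4 of 4 mesoderm and 4 of 4 fibroblast markers. Open gene ends thus did not separate cell types, and the label of the cells could not be checked in this way.

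The sequences just before the starts show how the promoters differ between subclusters. The 250 bases before the start of 8 genes follow, 5′ to 3′, from the RefSeq promoter table (GRCh38.p14), with every CGCT in capitals. These letters are the core of the conserved sequence box known from protocadherin promoters. So short a run also occurs elsewhere, so a capital stretch need not be that box. The first 4 genes stand for starts that were open in all 6 libraries, 1 for each of the PCDHA C-type, PCDHB, PCDHGB and PCDHG C-type sets.
PCDHAC1, chr5:140926049-140926298, + strand: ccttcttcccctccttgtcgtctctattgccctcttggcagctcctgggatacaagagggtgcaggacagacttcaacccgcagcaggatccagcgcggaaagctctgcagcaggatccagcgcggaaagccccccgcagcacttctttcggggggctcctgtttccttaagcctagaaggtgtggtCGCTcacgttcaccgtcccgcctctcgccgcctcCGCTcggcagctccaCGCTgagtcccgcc
PCDHB2, chr5:141094365-141094614, + strand: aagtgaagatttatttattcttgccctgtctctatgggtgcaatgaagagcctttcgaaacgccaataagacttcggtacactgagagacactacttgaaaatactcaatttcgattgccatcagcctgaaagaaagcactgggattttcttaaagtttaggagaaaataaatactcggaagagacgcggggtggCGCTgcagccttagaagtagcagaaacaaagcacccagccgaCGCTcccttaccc
PCDHGB7, chr5:141417427-141417676, + strand: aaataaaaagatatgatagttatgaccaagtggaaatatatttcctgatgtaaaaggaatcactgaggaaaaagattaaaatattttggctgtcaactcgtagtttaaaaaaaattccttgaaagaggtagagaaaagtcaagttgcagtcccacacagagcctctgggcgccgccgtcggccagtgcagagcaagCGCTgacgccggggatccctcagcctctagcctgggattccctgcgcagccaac
PCDHGC3, chr5:141475716-141475965, + strand: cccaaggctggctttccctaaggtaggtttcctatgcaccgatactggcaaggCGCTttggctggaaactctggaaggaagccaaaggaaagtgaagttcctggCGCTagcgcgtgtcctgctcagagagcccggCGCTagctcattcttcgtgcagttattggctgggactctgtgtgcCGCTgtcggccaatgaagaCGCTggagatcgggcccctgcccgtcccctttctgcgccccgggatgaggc
PCDHA1 and PCDHGA2 were open in every shHNRNPU library and in no shLUC library, PCDHB13 showed the reverse, and PCDHGA3 was open in no library.
PCDHA1, chr5:140785890-140786139, + strand: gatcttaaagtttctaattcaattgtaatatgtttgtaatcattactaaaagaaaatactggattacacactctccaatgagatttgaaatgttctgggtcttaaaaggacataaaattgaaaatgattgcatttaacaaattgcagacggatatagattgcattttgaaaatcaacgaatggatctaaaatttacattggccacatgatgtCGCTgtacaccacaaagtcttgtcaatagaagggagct
PCDHGA2, chr5:141338510-141338759, + strand: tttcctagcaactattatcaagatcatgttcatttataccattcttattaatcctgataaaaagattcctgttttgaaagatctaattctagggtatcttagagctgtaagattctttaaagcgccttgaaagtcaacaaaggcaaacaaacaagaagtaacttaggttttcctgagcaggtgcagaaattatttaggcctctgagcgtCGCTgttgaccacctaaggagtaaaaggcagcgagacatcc
PCDHB13, chr5:141213669-141213918, + strand: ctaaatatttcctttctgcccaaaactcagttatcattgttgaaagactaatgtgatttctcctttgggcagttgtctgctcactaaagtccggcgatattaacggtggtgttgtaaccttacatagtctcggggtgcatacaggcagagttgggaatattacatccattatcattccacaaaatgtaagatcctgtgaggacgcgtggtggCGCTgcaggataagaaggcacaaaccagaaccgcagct
PCDHGA3, chr5:141343579-141343828, + strand: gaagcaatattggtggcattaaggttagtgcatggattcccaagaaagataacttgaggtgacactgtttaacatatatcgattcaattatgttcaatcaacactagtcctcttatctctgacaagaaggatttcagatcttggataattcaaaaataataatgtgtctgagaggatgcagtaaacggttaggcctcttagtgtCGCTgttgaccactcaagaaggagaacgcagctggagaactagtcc

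Of the 53 genes, 47 had a start window in the table (250 bases before to 50 bases after the start). PCDHA3, PCDHA13, PCDHB6, PCDHB11, PCDHGA12 and PCDHGC5 had none. The 11 windows of alternate PCDHA genes held 3 to 9 CpG dinucleotides with a median of 7, the 14 PCDHB windows 5 to 12 with a median of 7.5, the 11 PCDHGA windows 2 to 12 with a median of 5, and the 7 PCDHGB windows 7 to 16 with a median of 11. The 4 C-type windows held 15 to 27 CpG, with 27 in PCDHAC1, 15 in PCDHAC2, 18 in PCDHGC3 and 23 in PCDHGC4. The median over the windows of 15843 protein-coding genes was 22, so the alternate promoters lay far below the usual promoter in CpG number and the C-type promoters nearer to it.

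The letters CGCT occurred on either strand in 46 of the 47 windows (97.9%), all but that of PCDHA9, and in 81.1% of all windows, as so short a run is common. Longer runs of 9 letters were picked as the run shared by the most windows of a set, so that their counts within the set are a description. GATGTCGCT was in 9 of 11 alternate PCDHA windows, in none of the other 36 and in 0.101% of all windows. GGTGGCGCT was in 13 of 14 PCDHB windows, PCDHB1 being without it, again in none of the other 33 and in 0.410% of all windows. The run most shared among PCDHGA windows was GCGCCGCTG, in 6 of 11, in 4 other members and in 0.783% of all windows. That among PCDHGB windows was TCTGGGCGC, in 5 of 7, in no other member and in 0.454% of all windows. Each of the first 3 runs holds the letters CGCT.

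Part of the CTCF motif, searched as AGNNGGCGC on both strands, was in the windows of PCDHB7, PCDHB9 and PCDHGC4, or 6.38% of the 47 against 13.5% of all windows. An exact match to these letters misses variant sites and any site outside the window. These shares therefore do not show how many promoters carry a CTCF site. The TATA box letters TATAAA, on both strands, were in 6 windows (PCDHA6, PCDHA10, PCDHA12, PCDHB12, PCDHGA2 and PCDHGA4), or 12.8% against 9.63% of all.

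Across libraries the protocadherin starts fell into a small set that was open everywhere, a set that was never open and a large set in between. A start was open in all 6 libraries for 15 of the 53 genes (28.3%), against 68% of the 15849 protein-coding genes with a known start. It was open in none for 11 genes (20.8%), close to the 22.3% of all genes. The remaining 27 genes (50.9%) were open in 1 to 5 libraries, whereas 9.68% of all genes were. Against all genes, the clusters thus had a large share of starts called in some libraries and not in others. Genes of like summit level or CpG number were not compared.

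**Figure D1:**
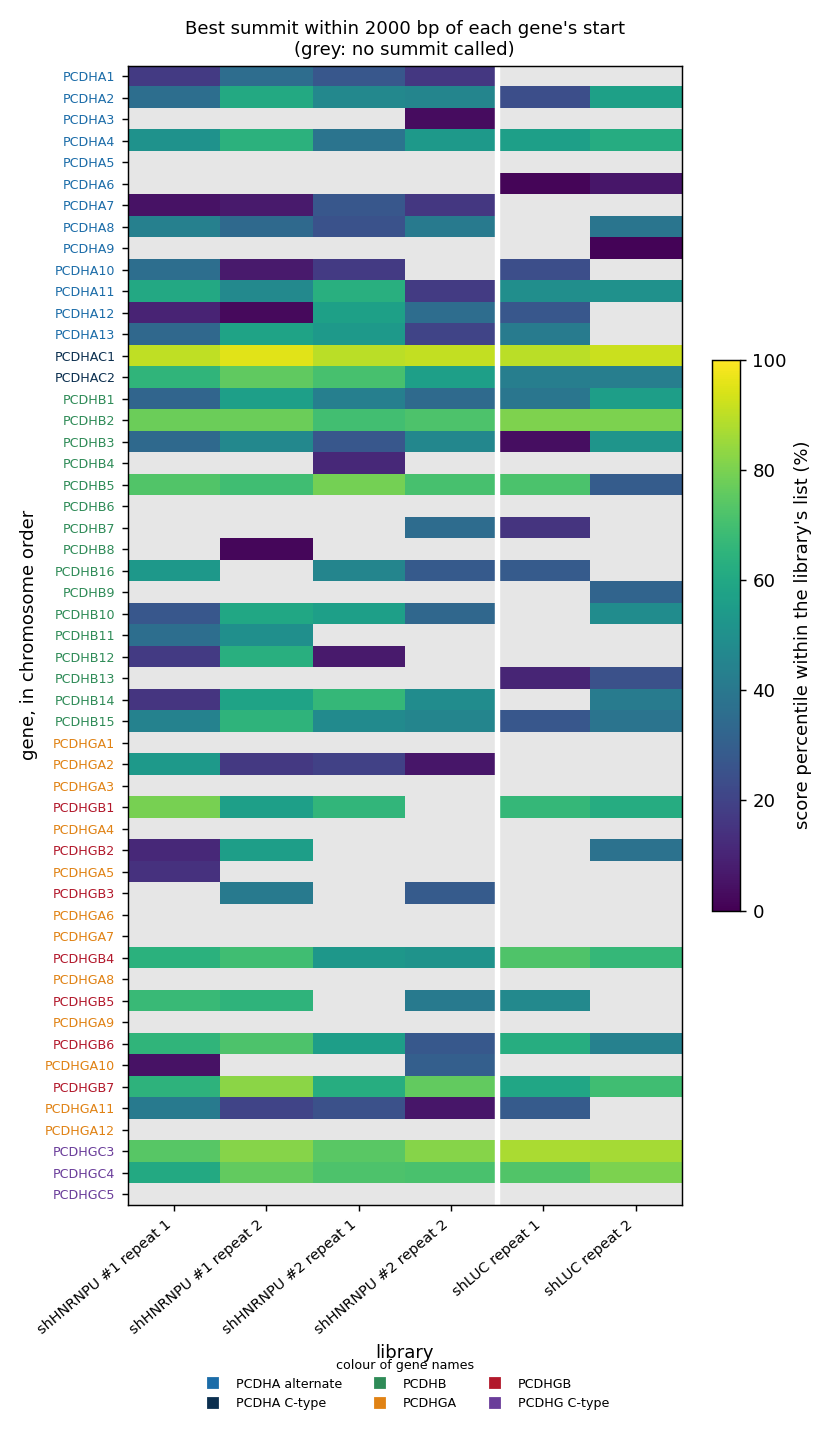
Score percentile of the best summit within 2000 bp of the start of each of the 53 genes (rows, in chromosome order, names coloured by subcluster) in the 6 libraries (columns). Grey marks a start with no summit called. PCDHAC1 is the strongest start in every library, the PCDHGA rows are mostly grey, and PCDHGB rows between them are mostly filled.

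The subclusters differed in how often they were open. Counting each gene in each library, both PCDHA C-type genes were open in 12 of 12 cases, the PCDHGB genes in 32 of 42 (76.2%), the alternate PCDHA genes in 49 of 78 (62.8%), the PCDHB genes in 56 of 96 (58.3%) and the PCDHGA genes in 12 of 72 (16.7%). The PCDHG C-type genes were open in 12 of 18 cases, since PCDHGC3 and PCDHGC4 were open in every library and PCDHGC5 in none. PCDHGA and PCDHGB genes alternate along the same stretch of the chromosome, so that open PCDHGB starts stood between closed PCDHGA starts. All 7 PCDHGB genes were open in at least 1 library, and 8 of the 12 PCDHGA genes (PCDHGA1, PCDHGA3, PCDHGA4, PCDHGA6, PCDHGA7, PCDHGA8, PCDHGA9 and PCDHGA12) were never open. The other starts that were never open were PCDHA5, PCDHB6 and PCDHGC5.

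Where a protocadherin start was open, its summit was usually weak. The median percentile of the best summit over open members was 48.2 ± 8.85 (SD, n = 4) in shHNRNPU libraries and 46.1 ± 4.82 (SD, n = 2) in shLUC libraries, against 85.4 ± 1.24 and 83.8 ± 0.463 over all genes with an open start. By subcluster, the median over all open cases was 82.6 for the PCDHA C-type genes, 75.3 for the PCDHG C-type genes, 62.3 for PCDHGB, 45.5 for PCDHB, 35.9 for the alternate PCDHA genes and 20.0 for PCDHGA. The order of the subclusters by level was the same as that by median CpG number, with the C-type genes first, PCDHGB next and PCDHGA last.

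Among the genes with a start window, those open in all 6 libraries held 3 to 27 CpG with a median of 11 (15 genes), those open in 1 to 5 libraries 4 to 14 with a median of 7.5 (24 genes) and those never open 2 to 7 with a median of 5 (8 genes). The ranges overlapped: PCDHA2, with 3 CpG, was open in every library, and PCDHB4, with 12, was open in 1. The 8 never-open windows all held CGCT.

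**Figure D2:**
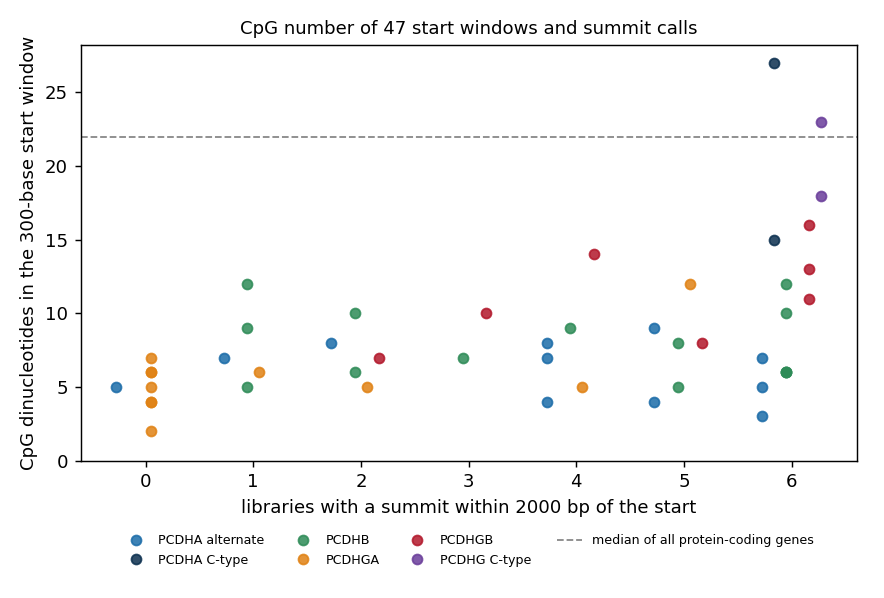
Number of CpG dinucleotides in the 300-base start window (vertical axis) of 47 genes against the number of libraries with a summit within 2000 bp of the start (horizontal axis, points shifted by subcluster). The dashed line is the median of 22 over all protein-coding genes. The never-open starts have at most 7 CpG, and 2 C-type windows, of 27 and 23 CpG, lie above the line.

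The C-type genes, whose promoters are the ones neurons use regardless of the alternate choice, ranged from the strongest start of all members to none. PCDHAC1 (start at chr5:140926299) stood at percentiles of 90.4 and 95.4 in the shHNRNPU #1 libraries, 89.8 and 90.6 in the shHNRNPU #2 libraries and 89.6 and 91.8 in the shLUC libraries. These values overlapped between the groups, and PCDHAC1 was the only member start above 90 in any library. PCDHAC2 stood at 65.4, 75.5, 70.9 and 56.6 in the shHNRNPU libraries, in the same order, and at 42.7 and 43.0 in the shLUC libraries. All 4 shHNRNPU values were above both shLUC values, by 24.2 percentile points between the means (67.1 ± 8.14, SD, n = 4, against 42.8 ± 0.161, SD, n = 2). Of all loci present in the 6 libraries, 10.9% were higher and 13.9% lower in every shHNRNPU library. Those shares are for loci joined within 250 bp, not for the best summit near a start, for which no share was taken. When summits scoring under 5 (−log10 of the q-value) were left out and the rest ranked anew, the difference was 38.6 points. The values were then 49.7, 63.8, 55.3 and 39.8 against 16.7 and 10.5, so the 2 differences are not on 1 scale. The summit of PCDHAC2 was not the same in each library, as it lay 117 to 133 bp after the start in 4 libraries, 671 bp after it in shHNRNPU #2 repeat 2 and 441 bp after it in shLUC repeat 2.

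PCDHGC3 stood at 74.2, 81.7, 74.5 and 81.7 in the shHNRNPU libraries and at 87.2 and 86.6 in the shLUC libraries. Here the shLUC values were the higher ones (background 13.9% of all loci present in the 6 libraries), and the means differed by -8.90 points. PCDHGC4 stood at 60.8, 76.1, 72.2 and 71.2 against 72.7 and 80.2, with overlapping groups.

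Of the alternate and PCDHB genes open everywhere, PCDHB2 was the strongest, at 77.6, 77.5, 69.8 and 72.1 in the shHNRNPU libraries against 80.6 and 80.4 in the shLUC libraries. Its summit lay at -1 to -3 bp from the annotated start in all 6 libraries. PCDHB5 stood at 72.7, 69.2, 79.3 and 71.0 against 71.8 and 29.0, so that the 2 shLUC libraries differed from each other by more than any shHNRNPU library differed from shLUC repeat 1. PCDHA4 stood at 51.1, 64.2, 38.3 and 54.3 against 56.5 and 61.9, with overlapping groups.

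The 3 PCDHGB genes open everywhere were similar in level. PCDHGB7 stood at 64.6, 82.7, 62.3 and 76.1 in the shHNRNPU libraries against 59.1 and 69.2 in the shLUC libraries. PCDHGB4 stood at 63.9, 69.4, 52.8 and 51.5 against 72.5 and 66.6, and PCDHGB6 at 65.4, 72.0, 56.2 and 27.4 against 62.4 and 43.9. The groups overlapped at each of the 3. The other 5 genes open in all libraries, PCDHA11, PCDHA2, PCDHB15, PCDHB1 and PCDHB3, had mean percentiles of 35.0 to 48.0, with single values from 3.79 to 65.0. Among these, the 4 shHNRNPU values of PCDHB15 (44.3, 65.0, 47.9 and 45.3) were above both shLUC values (27.2 and 38.3). The background for this was 10.9% of all loci present in the 6 libraries.

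An exact permutation test of 4 against 2 libraries has 15 assignments and gives a two-sided p of 0.133 at best, so that no start could pass a threshold of 0.05. Averaged over the 15 starts open everywhere, the percentile was 61.1 ± 5.68 (SD, n = 4) in shHNRNPU and 58.2 ± 3.17 (SD, n = 2) in shLUC libraries, a difference of 2.95 points that was smaller than the spread. The number of starts open everywhere changed under some alternatives. With lists of one length the difference was 5.72 points over 14 starts, where all shHNRNPU libraries (56.3 to 64.6) were above both shLUC libraries (51.9 and 54.2). With a score of at least 5 it was -0.63 points over 9 starts. Percentiles were ranked anew in both. The difference was 0.229 points over 15 starts without shHNRNPU #1 repeat 2 and 0.483 points over 18 without shLUC repeat 1.

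Summit positions also differed by subcluster. In the alternate PCDHA genes the best summit lay a median of 303 bp after the start, that is, inside the gene, with 87.8% of 49 summits after the start. In the PCDHA C-type genes the median was 176 bp after the start. In PCDHB, PCDHGA and PCDHGB the medians were 5, 30.5 and 30 bp after the start, and in the PCDHG C-type genes -73 bp, that is, before it. Over all genes the median was -51 bp, and 37.9% of summits lay after the start. At PCDHA1, the summit lay 165 to 376 bp after the start, past the end of the sequence shown above.

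**Figure D3:**
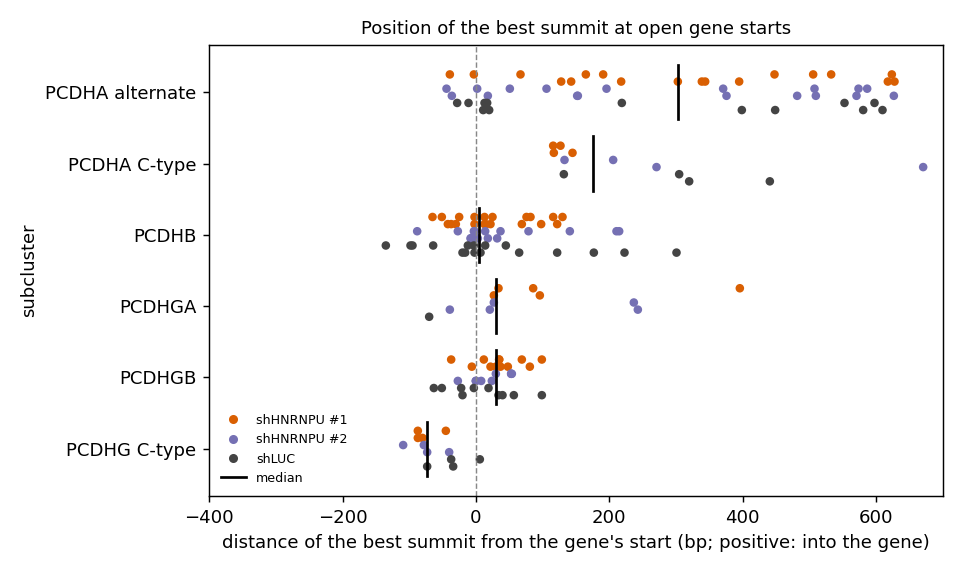
Distance of the best summit from the gene's start (horizontal axis, bp, positive into the gene) for every open start in every library, by subcluster. Points are coloured by hairpin and black bars are medians; 1 summit of PCDHGA5, at -1868 bp, is outside the axis. The alternate PCDHA genes spread from the start to 628 bp into the gene, while PCDHB and PCDHGB summits gather at the start.

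More protocadherin starts were open in the shHNRNPU libraries than in the shLUC libraries. The number of open starts was 33 and 32 with shHNRNPU #1, 29 and 30 with shHNRNPU #2, and 25 and 24 with shLUC. The groups did not overlap, and the means differed by 6.5 genes (31 ± 1.83, SD, n = 4, against 24.5 ± 0.707, SD, n = 2). As a share of the 53 genes this was 58.5% ± 3.44 against 46.2% ± 1.33, whereas over all genes with a known start it was 73.2% ± 0.784 against 72.2% ± 0.0357. The protocadherin share minus that of all genes was thus -17.9 to -11.4 points in the shHNRNPU libraries and -26.9 to -25.0 points in the shLUC libraries. The shortest list, of shHNRNPU #2 repeat 2, held 30 open starts, more than either shLUC library. Among the 8 pluripotency markers, 2 went with the groups as well: SOX2 had 1, 2, 1 and 2 summits near its ends against 3 and 3, and NANOG 2, 2, 1 and 1 against 3 and 3 (background 1.01%). Summed over the 8 genes these were 8 to 12 summits against 13 and 13, whereas the 4 endoderm markers summed to 5 to 9 against 4 and 4, and the neural, mesoderm and fibroblast sums overlapped. Their part in the protocadherin counts was not tested.

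By subcluster, the alternate PCDHA genes numbered 9 open of 13 in each shHNRNPU library and 7 and 6 in the shLUC libraries. Of the PCDHGA genes 4, 2, 2 and 3 were open against 1 and 0. Both sets were higher in every shHNRNPU library than in every shLUC library, but not once weak summits were left out. With a score of at least 5, the open alternate PCDHA starts numbered 6, 6, 5 and 4 against 3 and 4, and the open PCDHGA starts 2, 0, 0 and 1 against 0 and 0, and with lists of one length both sets also met or overlapped. Of the PCDHB genes 10, 10, 10 and 9 were open against 8 and 9, and of the PCDHGB genes 6, 7, 4 and 5 against 5 and 5, so that these groups met or overlapped. With a score of at least 5, though, the open PCDHB starts numbered 7, 9, 7 and 9 against 3 and 6, with no overlap. Which subcluster separated the groups thus depended on the score minimum. Of the C-type genes, 2 of the PCDHA cluster and 2 of the PCDHG cluster were open in each library, with no difference between hairpins.

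**Figure D4:**
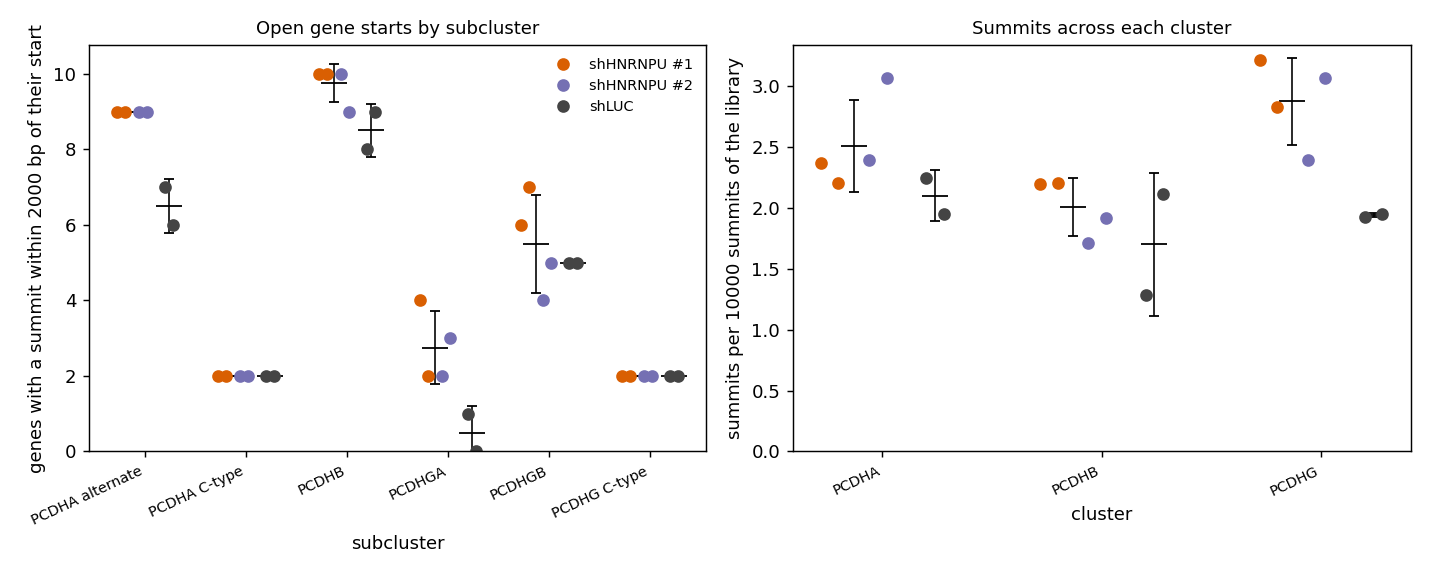
Left, number of genes with a summit within 2000 bp of their start, by subcluster, in each library (points). Right, summits across each cluster per 10000 summits of the library. Horizontal bars are means with SD as error bars (n = 4 shHNRNPU, n = 2 shLUC). With no score minimum, as drawn, the alternate PCDHA and PCDHGA starts on the left and the PCDHG cluster on the right have all shHNRNPU points above both shLUC points.

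Few starts followed the groups in every library, and their summits were mostly weak. A start was open in all 4 shHNRNPU libraries and in neither shLUC library at 3 genes, PCDHA1, PCDHA7 and PCDHGA2 (5.66% of the 53), against 0.334% of all genes. The reverse held at 2 genes, PCDHA6 and PCDHB13 (3.77%), against 0.133% of all genes. Genes open in every library or in none cannot show either pattern, so the shares were also taken over genes open in 1 to 5 libraries. There they were 3 of 27 (11.1%) against 3.46% of all such genes, and 2 of 27 (7.41%) against 1.37%. The protocadherin shares were above the background in both directions, and each rests on 2 or 3 genes. Without shLUC repeat 1 the counts were 6 and 4 genes, and without shLUC repeat 2 they were 6 and 2, each then resting on 1 control library.

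PCDHA1, the outermost gene of the PCDHA cluster, had its summit at percentiles of 17.0, 35.6, 27.2 and 16.3 in the shHNRNPU libraries and none in either shLUC library. PCDHA7 stood at 4.97, 7.36, 27.2 and 16.3, and PCDHGA2 at 53.8, 16.8, 19.4 and 5.90, again with none in the shLUC libraries. With 1 exception, PCDHGA2 in shHNRNPU #1 repeat 1, all of these values were in the lower part of the ranking. PCDHA6 was open in the shLUC libraries only, at 1.25 and 6.03, with summits 13 and 449 bp after the start, which are different positions. PCDHB13 was open in the shLUC libraries at 10.3 and 24.9, 64 bp before and 122 bp after the start. None of the 5 genes kept its pattern when summits with a score under 5 were left out. Open member starts then still numbered 24, 26, 20 and 22 in the shHNRNPU libraries against 15 and 19 in the shLUC libraries. The difference in open starts thus did not rest on these 5 genes alone.

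The remaining 22 genes open in some libraries were PCDHA3, PCDHA8, PCDHA9, PCDHA10, PCDHA12, PCDHA13, 9 PCDHB genes, PCDHGA5, PCDHGA10, PCDHGA11 and 4 PCDHGB genes. Over all 27 genes of this kind the percentiles ran from 0.954 to 79.6 with a median of 30.4. The strongest was PCDHGB1, open in 5 libraries at 79.6, 56.5 and 65.8 in shHNRNPU libraries and at 66.5 and 62.0 in the shLUC libraries, and absent from shHNRNPU #2 repeat 2. At 6 genes (PCDHA3, PCDHA9, PCDHB4, PCDHB8, PCDHB9 and PCDHGA5) the start was open in 1 library, at percentiles of at most 32.1. A somewhat wider limit than 2000 bp would not have changed these calls, as the nearest summit was never between 1868 and 3138 bp from a member's start in any library. A narrower one did change them. Within 500 bp, 13 members were open in all libraries and 13 in none, and the group means differed by 5 open starts.

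Measured at either end, 45, 45, 45 and 44 genes had a summit in the shHNRNPU libraries and 41 and 41 in the shLUC libraries. All 22 PCDHG genes end at the same position (chr5:141512975), near which every library had 2 or 3 summits, so all of them counted as open in each library. PCDHA genes share an end as well, but no library had a summit near it. The number of summits near the ends was higher in every shHNRNPU library than in every shLUC library at 3 genes (5.66%, background 0.993%) and lower at 2 genes (3.77%, background 1.01%), the same genes as at the starts. Without shLUC repeat 1 these counts were 7 and 6, and without shLUC repeat 2 they were 7 and 3.

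Across whole clusters and with no score minimum, the PCDHG cluster separated the groups. It held 19 and 18 summits with shHNRNPU #1, 14 and 16 with shHNRNPU #2 and 12 and 12 with shLUC. Per 10000 summits of the library this was 2.88 ± 0.358 (SD, n = 4) against 1.94 ± 0.0182 (SD, n = 2), a difference of 0.936, with all shHNRNPU libraries above both shLUC libraries. The exact permutation test gave p = 0.133, the smallest it can give, and 0.267 after Benjamini-Hochberg adjustment over the 3 clusters and their sum. Counting error alone was wide, since the Wilson 95% interval was 1.43 to 4.02 per 10000 in shHNRNPU #2 repeat 1 and 1.12 to 3.42 in shLUC repeat 2.

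The PCDHA cluster held 14, 14, 14 and 16 summits against 14 and 12, and the PCDHB cluster 13, 14, 10 and 10 against 8 and 13. These groups overlapped, with differences of 0.406 (exact permutation p = 0.267) and 0.306 (exact permutation p = 0.4) per 10000, and without shLUC repeat 1 the latter was -0.110 and without shLUC repeat 2 it was 0.722. The PCDHA difference was 0.221 without shHNRNPU #2 repeat 2 and 0.258 without shLUC repeat 2. With a score of at least 5, all shHNRNPU libraries were above both shLUC libraries in each cluster, by 0.368 in PCDHA, 1.08 in PCDHB and 0.70 in PCDHG, so that PCDHB then differed most. The 3 clusters together held 46, 46, 38 and 42 summits against 34 and 37, or 7.40 ± 0.683 (SD, n = 4) against 5.75 ± 0.397 (SD, n = 2) per 10000, with exact permutation p = 0.133 and an adjusted p of 0.267. Of these summits, 69.6% to 76.5% in each library lay within 2000 bp of a member's start.

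Joined within 250 bp, the summits of the 3 clusters formed 72 loci, of which 18 (25%) were present in all 6 libraries and 18 in a single library, against 20.7% and 38.0% of all 123131 loci. Gained loci, present in every shHNRNPU and no shLUC library, numbered 3 of 72 (background 0.88%), and they were the starts of PCDHA1, PCDHA7 and PCDHGA2. The lost locus was 1 of 72 (background 1.93%), at chr5:141214041 in PCDHB13. Without shHNRNPU #2 repeat 2, shLUC repeat 1 or shLUC repeat 2 there were 5, 5 and 6 gained loci, and without shLUC repeat 1 or 2 there were 6 and 3 lost loci. Among the 18 loci in all libraries, 2 had a higher percentile in every shHNRNPU library (background 10.9%) and 3 a lower one (background 13.9%), close to what all loci showed.

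**Figure D5:**
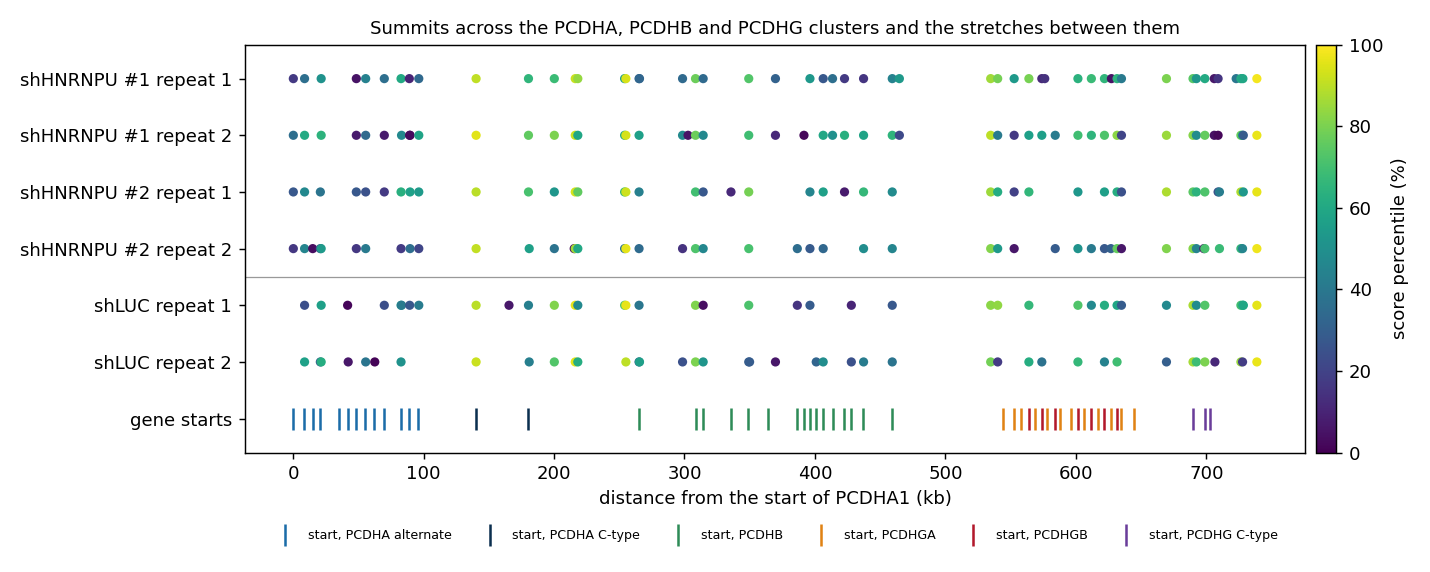
Summits (points, coloured by score percentile) in each library along the 3 clusters and the stretches between them, by distance from the start of PCDHA1 (kb), with gene starts as ticks below. Points that lie close together overlap. Strong summits recur in every library at the PCDHAC1 start (140 kb), at 216 kb, between the clusters at 255 kb and past the PCDHG cluster at 739 kb.

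Of the 18 loci in all libraries, 12 were at a member's start and 6 were not. The strongest of the 6, at chr5:141002438, lay 9.91 kb before the shared end of the PCDHA genes, inside the span of all 15. It stood at percentiles of 91.7, 91.9, 93.7 and 86.3 in the shHNRNPU libraries and at 96.1 and 95.5 in the shLUC libraries, the latter higher throughout. Its neighbour at chr5:141004409 stood at 84.2, 59.0, 75.5 and 60.0 against 47.1 and 61.8, and another locus of that stretch, at chr5:140986398, at 68.0, 80.2, 52.6 and 38.2 against 81.0 and 72.8. At the latter 2 the groups overlapped.

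In the PCDHG cluster, the locus at chr5:141455577 lay between the last PCDHGA gene and PCDHGC3, inside the span of the 19 PCDHGA and PCDHGB genes and away from any start. It stood at 80.4, 85.1, 87.6 and 81.0 in the shHNRNPU libraries and at 47.1 and 29.8 in the shLUC libraries. The means differed by 45.1 points (83.5 ± 3.43, SD, n = 4, against 38.4 ± 12.3, SD, n = 2), the widest gap of the 18 loci, and it is given here because it was the widest. The locus at chr5:141512620, 0.355 kb before the shared PCDHG end, stood at 60.6, 77.0, 87.7 and 66.1 against 69.8 and 84.5, and that at chr5:141478504, after the PCDHGC3 start, at 52.6, 48.1, 64.1 and 45.1 against 48.1 and 68.6. Both overlapped between the groups.

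Outside the spans of the members, 2 loci had higher mean percentiles than PCDHAC1 (93.7 and 96.8 against 91.3). The first, at chr5:141041241, 28.9 kb past the shared PCDHA end and before PCDHB1, stood at 93.9, 93.5, 92.6 and 95.7 in the shHNRNPU libraries and at 96.4 and 90.2 in the shLUC libraries. The other, at chr5:141524867 in DIAPH1, 11.9 kb past the shared PCDHG end, stood at 98.3, 96.7, 96.2 and 97.4 against 95.9 and 96.6. Neither separated the groups.

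Genes around and related to the clusters were counted at either end, not at the start alone. By that measure 32 of the 53 members had a summit in all 6 libraries, the PCDHG genes among them through their shared end. Of 12 neighbours outside and between the clusters, 10 had a summit near an end in all 6 libraries, among them TAF7, which encodes a subunit of the general transcription factor TFIID and lies between the PCDHB and PCDHG clusters. SLC25A2 had none and DND1 had 1 in shHNRNPU #1 repeat 2. At 3 neighbours past the PCDHG cluster the number of summits was lower in every shHNRNPU library (background 1.01%): HDAC3, which encodes a histone deacetylase, had 2 in each shHNRNPU and 3 in each shLUC library, and RELL2 and FCHSD1 each had 1 against 2. These 3 genes lie next to each other, so a summit can count for more than 1 of them.

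Of 12 protocadherins outside the clusters, 10 had a summit near an end in every library and 2, PCDH11X and PCDH12, in none, with no gene whose groups did not overlap. All 14 genes known to act on the clusters had one in every library, among them CTCF, the cohesin subunits RAD21, SMC1A and SMC3, the chromatin repressor SMCHD1 and the DNA methyltransferases DNMT1, DNMT3A and DNMT3B, again with no gene whose groups did not overlap. HNRNPU itself had 2, 3, 2 and 2 summits near its ends against 2 and 2.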

How the data were processed

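The data were 6 ATAC-seq libraries of H1 cells. The article named for the series describes other libraries, so it guided only the style of writing. Per the labels, nuclei of 50000 cells were tagmented and amplified with 17 PCR cycles. The submitters' processing notes name cutadapt, Bowtie2, SAMtools, MACS2, deepTools and hg38, with versions, parameters and roles not given in the sources used here. The authors deposited 1 list of summits per library, each 1 bp wide with a score, which by its values and layout is a −log10 q-value (lowest scores 1.30 to 1.31) assigned within that library. The deposited scores were not scaled between libraries and no read counts come with them, so limits of detection are unknown, and Wilson intervals (95%) cover counting of summits only.

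Groups and repeat numbers came from the sample titles. Percentiles were taken within each list, with ties at their mean rank. Gene positions came from the RefSeq table of GRCh38.p14, and strand and sequence from its promoter table, in which every member listed was on the + strand, so the others were read the same way. Cluster spans reached 2000 bp past the outer members. Loci took the summit of highest percentile first and absorbed summits within 250 bp. Group means were compared by exact permutation over 15 assignments, two-sided, with the smaller tail doubled. Planned tests of counts and means over members, and of single members, are not printed, since the members and lists were chosen with earlier results of these data known. The tests across clusters are printed, but their spans are set by the same members, so this limit holds for them as well.

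Values in every library were given for the 10 members with the highest mean percentile among those open in all 6 libraries, for members whose groups did not overlap and for the 10 strongest shared, lost or gained loci. PCDHB15, PCDHGB1, the 2 weakest shared loci away from starts and the 2 loci outside the clusters were named, and the 9-letter runs and CGCT counted, after their values were seen. The alternatives changed the score minimum (5), the list length (that of the shortest), the libraries used (each left out), the distance from gene ends (500 bp, or no flank), the scaling of cluster counts, the match distance (100 and 500 bp), the distance for absence (1000 bp) and the permutation (within repeats). Repeat numbers did not pair the libraries: deviations of same-numbered libraries had correlations of -0.0149, -0.00105 and 0.00126 over 123131 loci. Any 2 libraries shared 1.65% to 2.22% of exact summit positions, so no library was a copy of another. Scripts were tested on simulated data and used Python 3.11.15, numpy 2.4.6, pandas 2.3.3, scipy 1.17.1 and matplotlib 3.10.9.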

Additional observations from a re-analysis of the deposited data

Results flagged for a closer look

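Among 39 results looked at, 4 had 1 of the 4 shHNRNPU libraries far from the others by Dixon's criterion. Chance alone meets it in about 1 of 20 groups of continuous values, a rate that does not hold for small counts. The number of PCDHB genes with an open start was 9 in shHNRNPU #2 repeat 2 against 10 in each of the other 3, and that of PCDHB genes with a summit near either end was 11 there against 12. The number of all members with a summit near either end was 44 in the same library against 45. These 3 counts overlap in the genes they cover and each differs by 1, in the library with the shortest list. Where 3 counts tie, any difference of the other meets the criterion, and counts without spread never can. At the PCDHAC1 start, the percentile of 95.4 in shHNRNPU #1 repeat 2 stood above 89.8 to 90.6 in the other 3. No result had both libraries of one hairpin above and both of the other below the shLUC libraries.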

How the results depend on the processing

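The number of open member starts was higher in shHNRNPU libraries by 5 to 7.25 genes under every alternative run, and summits across the 3 clusters, per 10000, by 1.37 to 2.14. With a score of at least 5, members open in all libraries numbered 9 and in none 20, the counts of starts and of gene ends that separated the groups, in either direction, and of gained and lost loci were all 0, and the mean percentile over members open in all libraries differed by -0.63 points. There the alternate PCDHA and PCDHGA starts no longer separated the groups, whereas the PCDHB starts did, and summits across PCDHB differed by 1.08 per 10000, more than across PCDHG (0.70). With lists of one length, 1 member was open in every shHNRNPU and no shLUC library and 0 the reverse, 0 members had fewer summits near their ends in every shHNRNPU library, and 1 locus was gained and 0 lost. Matching within 100 bp gave 1 gained and 0 lost loci, and within 500 bp 2 lost loci.

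Leaving out each library in turn, 3 to 6 members were open in every shHNRNPU and no shLUC library and 2 to 4 the reverse, 3 to 7 had more and 2 to 6 fewer summits near their ends in every shHNRNPU library, and 2 to 6 loci were gained and 1 to 6 lost, the highest counts coming without a shLUC library, where a single control decides. Summits across the PCDHB cluster differed by -0.110 to 0.722 per 10000, the negative value without shLUC repeat 1. In the test with a replicate block, 9 assignments allow no p under 0.222, which the 3 clusters (1.65 per 10000) and PCDHG (0.936) gave by exact permutation. Scores depend on read depth, which is unknown. The median protocadherin summit lay near the middle of each list, and the part of depth in these calls was not tested.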
